A study of Rattus norvegicus with 6 samples.

Results

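The striatum of tickled rats was set against that of lightly touched rats on a single 2-colour microarray, which is 1 of the 6 arrays of the study. It was chosen by its title. The log2 ratio of tickled over light touch was read for every gene as the median of the probes that carry exactly 1 symbol. Of 14871 symbols on the array, 10835 had a value, and the results cover all of them.

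Male rats of the outbred Wistar strain were tickled, lightly touched or given no stimulus. Tickling stood in for rough play among young rats and evoked calls at 50 kHz, which rats emit in rewarding situations. Light touch followed the same schedule and, like no stimulus, in general evoked no such calls. All rats were housed singly behind screens from weaning at 21 days of age and were 60 days old at sampling. Stimulated rats had a session on each weekday for 4 weeks, in which 15 s of rest alternated with 15 s of stimulation. On the array described here, RNA of tickled striatum carried Cy5 and RNA of light-touch striatum Cy3. A second striatal array sets tickled against no stimulus, and its values are given only for context, since both arrays carry tickled RNA. Neither array has a replicate or a dye swap, so a dye effect of a probe and a difference between the conditions cannot be told apart. The design text gives 4 animals per condition and a single replicate per array, and whether that replicate is 1 animal or a pool is not stated there. The labels name striatum as the tissue but hypothalamus in the RNA extraction text, so the markers of both regions are given below.

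The striatum is the input station of the basal ganglia and takes part in movement, habit and reward. Most of its neurons are GABA-releasing medium spiny neurons, which carry dopamine receptors and receive glutamate from cortex and thalamus. It is bordered by cortical white matter, by the lateral ventricle with its ciliated ependyma and choroid plexus, and by the subventricular zone, where cells keep dividing in adult rodents. Genes of these neighbours can therefore be present in a dissected block. In such bulk RNA, a lower share of a cell type and less RNA of that gene per cell cannot be told apart.

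Most genes differed little between tickled and light-touch striatum. The middle of the distribution was narrow, with quartiles of -0.08 and 0.08 on the log2 scale and a median of -0.003. All but the outermost percentile at either end lay between -0.47 and 0.54. Past 2-fold, which is a log2 ratio of 1, were 9 higher genes and 9 lower genes, 0.0831% of all valued genes in either direction. Past 1.5-fold were 88 higher and 59 lower, or 0.812% and 0.545%. There is no test with a single array, so genes are called by size alone. Among the higher genes, Drc7 (1.04) lay just inside the 2-fold limit and Mlf1 (0.99) just outside, and among the lower ones Cck (-1.01) and Nrn1 (-0.99) did.

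**Figure D1:**
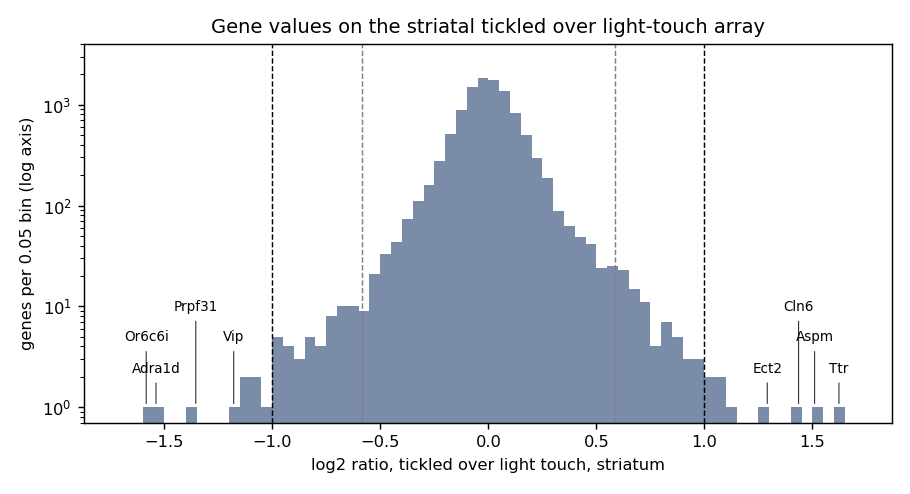
The histogram gives the number of genes (log axis) per 0.05-wide bin of the log2 ratio of tickled over light-touch striatum for 10835 genes; dashed black lines mark 2-fold and grey lines 1.5-fold. Both tails hold 9 genes past 2-fold, with Ttr, Aspm, Cln6 and Ect2 at the high end and Or6c6i, Adra1d, Prpf31 and Vip at the low end.

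The error at hand is the spread between probes of a gene, which covers the array and not the animals. Of the valued genes, 3886 had 2 or more valued probes, with a median standard deviation of 0.085 between them. Probes of 1880 of these genes, 48.4%, all shared a sign. The median standard deviation was larger for genes past 1.5-fold, at 0.158, with 0.226 for the higher and 0.097 for the lower ones. Of the 18 genes past 2-fold, 17 rested on a single probe, and the exception was Slc17a7 with probes at -1.17 and -1.09. Of the 147 genes past 1.5-fold, 11 had 2 or more probes, and in all 11 the probes shared a sign. Genes picked by a large median of their probes will mostly share a sign, so this is no check of the calls. Among genes with 2 or more probes and a value under 0.1 in size, 37.3% shared one.

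The gene with the highest ratio was Ttr, which encodes transthyretin, a thyroxine carrier that the choroid plexus makes in the brain. It was 3.08-fold higher in tickled than in light-touch striatum (log2 1.62) and had no value on the no-stimulus array. Part of the other high genes belonged to the cell cycle and motile cilium lists. All gene lists here and below were chosen with earlier results of these data known. A list's count beside the share of all genes is therefore a description only. Of the cell cycle list, 14 of 67 valued genes were 1.5-fold or more higher and 0 were lower, against 0.812% higher among all genes. Of the motile cilium and ependyma list, 5 of 21 were higher and 0 lower. Over genes with 2 or more agreeing probes, 1 of 12 cell cycle genes and 0 of 2 cilium genes were past 1.5-fold higher.

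Cell division needs a mitotic kinase to start it, a helicase and a topoisomerase to copy and untangle DNA, and a spindle to separate chromosomes. Genes of each of these steps were among the 14. Aspm, a spindle pole protein of dividing progenitors, was 2.85-fold higher (log2 1.51, against 0.35 over no stimulus). Ect2, which drives cytokinesis, was 2.45-fold higher (1.29, and 0.48 over no stimulus). These 2 were the members past 2-fold. Cdk1, the mitotic kinase itself, had 0.93 over light touch and 0.28 over no stimulus. Top2a, the topoisomerase of dividing cells, had probes at 0.62 and 1.14 with a median of 0.88 over light touch, and 0.32 over no stimulus. Lmnb1, a nuclear lamina protein, had 0.97 over light touch but -0.39 over no stimulus.

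The spindle and kinetochore genes Nuf2 (0.81), Tacc3 (0.72), Kif22 (0.60) and Dlgap5 (0.59) were also past 1.5-fold. So were Foxm1 (0.65), a transcription factor of mitotic genes, Ube2c (0.65), a ubiquitin-conjugating enzyme that helps cells leave mitosis, and Mcm3 (0.65), a subunit of the replicative helicase. Cdca3 and Cdca7, genes tied to cell division, had 0.67 and 0.71. The list was not uniform. The mitotic kinases Aurkb and Aurka had 0.55 and 0.42, the proliferation marker Mki67 had 0.38, and the mitotic cyclin Ccnb1 had 0.26. The helicase subunit Mcm4 (-0.26) and the S phase enzyme Rrm2 (0.01) were not higher. All 67 had a median of 0.16, with 53 above 0, against 49.1% of all genes above 0. On the no-stimulus array the members valued on both had a median of 0.06. Another 26 listed genes, among them Ccna2, Bub1 and Brca1, had no value. With the median of the other tissues' arrays subtracted, the list's median was 0.31 and 19 members were past 1.5-fold higher, with 1 lower. The subtracted values were themselves partly below 0. On the salivary gland arrays the list's median was -0.03 over light touch and -0.40 over no stimulus. On the leukocyte arrays it was -0.20 and 0.11 in the same order.

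Markers of progenitors and young neurons were given beside these genes. None of 27 valued members of that list was past 1.5-fold, against 0.812% of all genes higher and 0.545% lower. Their median was 0.09. Dcx, a microtubule protein of migrating young neurons, had 0.41, and the Notch ligand Dll3 also had 0.41. Microglia markers had a median of 0.03 over 19 genes, and blood cell markers -0.10 over 11. The part of any cell type in the cell cycle values was not tested.

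Promoters of several of these genes are shown because cell cycle genes are known to share short elements near the start site. The cell cycle homology region (CHR) is the site of the complexes that silence mitotic genes in resting cells, and CCAAT boxes often stand upstream of it. The sequences run from 250 bases before to 50 after the start site, are from RefSeq on GRCr8, and are written 5′ to 3′ on the gene's strand. Capitals mark CHR letters (TTTGAA or TTCGAA) and CCAAT on either strand.
Aspm, chr13:53625334-53625633, plus strand: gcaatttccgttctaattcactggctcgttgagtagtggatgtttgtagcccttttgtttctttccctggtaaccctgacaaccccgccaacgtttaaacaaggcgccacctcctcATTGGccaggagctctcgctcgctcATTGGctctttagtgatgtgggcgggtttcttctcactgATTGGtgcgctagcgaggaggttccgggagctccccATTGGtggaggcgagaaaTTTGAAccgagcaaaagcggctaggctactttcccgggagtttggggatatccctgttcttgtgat
Ect2, chr2:111966577-111966876, minus strand: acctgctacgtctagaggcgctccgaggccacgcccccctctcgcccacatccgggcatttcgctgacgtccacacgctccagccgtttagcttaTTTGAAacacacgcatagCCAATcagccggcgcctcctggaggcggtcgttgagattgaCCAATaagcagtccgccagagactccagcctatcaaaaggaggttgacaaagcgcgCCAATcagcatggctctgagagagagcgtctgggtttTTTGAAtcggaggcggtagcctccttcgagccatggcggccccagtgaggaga
Cdk1, chr20:19265043-19265342, plus strand: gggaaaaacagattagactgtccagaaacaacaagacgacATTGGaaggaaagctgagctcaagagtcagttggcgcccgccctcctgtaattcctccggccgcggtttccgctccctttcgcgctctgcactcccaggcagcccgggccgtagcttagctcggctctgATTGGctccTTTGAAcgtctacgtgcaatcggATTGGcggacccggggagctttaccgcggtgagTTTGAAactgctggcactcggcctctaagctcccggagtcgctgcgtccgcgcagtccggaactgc
Top2a, chr10:84473044-84473343, minus strand: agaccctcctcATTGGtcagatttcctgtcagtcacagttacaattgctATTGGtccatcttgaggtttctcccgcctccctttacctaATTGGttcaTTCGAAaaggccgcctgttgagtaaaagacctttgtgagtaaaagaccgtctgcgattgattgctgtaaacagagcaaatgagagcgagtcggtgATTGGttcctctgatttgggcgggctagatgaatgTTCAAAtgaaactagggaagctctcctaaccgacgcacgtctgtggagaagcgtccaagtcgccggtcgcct

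In Aspm a CHR match began 16 bases before the start site, with 4 CCAAT matches further upstream. Cdk1 also had a match beginning at 16 bases before the start, and Ect2 had one beginning 3 bases before it. Top2a had its nearest match on the opposite strand, 22 bases before the start. Of the 14 higher cell cycle genes, 12 had a promoter in the table, 9 of these held CHR letters and 10 held CCAAT. Promoters of all genes valued on the array held them in 13.3% and 37.5%, and all 33469 promoters of the table in 19.7% and 37.5%. The 61 promoters of all valued cell cycle genes held them in 59.0% and 75.4%, whether or not the gene was past 1.5-fold. These letters are a description of the window and not shown to be sites.

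The cilium genes centre on Foxj1, the transcription factor that switches on the motile cilium programme and marks ependymal cells. It had a log2 ratio of 0.63 over light touch and -0.13 over no stimulus. Mlf1, a gene active in multiciliated cells, had 0.99 over light touch and 0.72 over no stimulus. Dynlrb2, a dynein light chain, had 0.75 (0.20 over no stimulus), Tmem212 had 0.82 (0.15) and Tsnaxip1 had 0.68 (0.60). Below the 1.5-fold limit were Tekt2 (0.58) and Tekt1 (0.48), tektins that line the axoneme's microtubules, and Rsph1 (0.54), a radial spoke protein.

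Of the whole list of 21, 18 lay above 0, against 49.1% of all genes. The list's median was 0.29 over light touch and 0.13 over no stimulus. Dnai1, an outer arm dynein chain, was nearer to 0 with 0.28. A further 9 members had no value. The subtraction of the other tissues' median left 9 genes with a median of 0.11 and 0 past 1.5-fold, since none of the 5 higher members had a value in those tissues. Outside the list, Drc7 and Drc12, subunits of the complex that regulates axonemal dyneins, had 1.04 and 0.96. Both probes of Drc12 were high, at 0.80 and 1.12, and over no stimulus these genes had 0.19 and 0.20.

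Choroid plexus and meningeal genes also had high members. Folr1, the folate receptor of choroid epithelium, was past 1.5-fold with 0.61 over light touch and 0.28 over no stimulus. Ttr and Folr1 were the only 2 of 15 valued members past 1.5-fold higher, against 0.812% of all genes, and each rested on 1 probe. Over genes with 2 or more agreeing probes, 0 of 3 members were past 1.5-fold. The other 13 valued members lay between -0.19 and 0.44. Sostdc1, a secreted inhibitor of BMP and Wnt signals, had 0.44, and Ptgds, the prostaglandin D synthase of meninges and myelin, had 0.37. Aqp1, the water channel of choroid epithelium, went the other way with -0.19. The median of all 15 was 0.21, and it was -0.021 over 12 genes with the other tissues' median subtracted. Kl, Clic6, Kcnj13 and Otx2, which also mark the choroid plexus, were among 10 members without a value, so the list cannot be read in full. Whether choroid plexus or ependyma in the dissected blocks has a part in the values above was not tested.

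**Figure D2:**
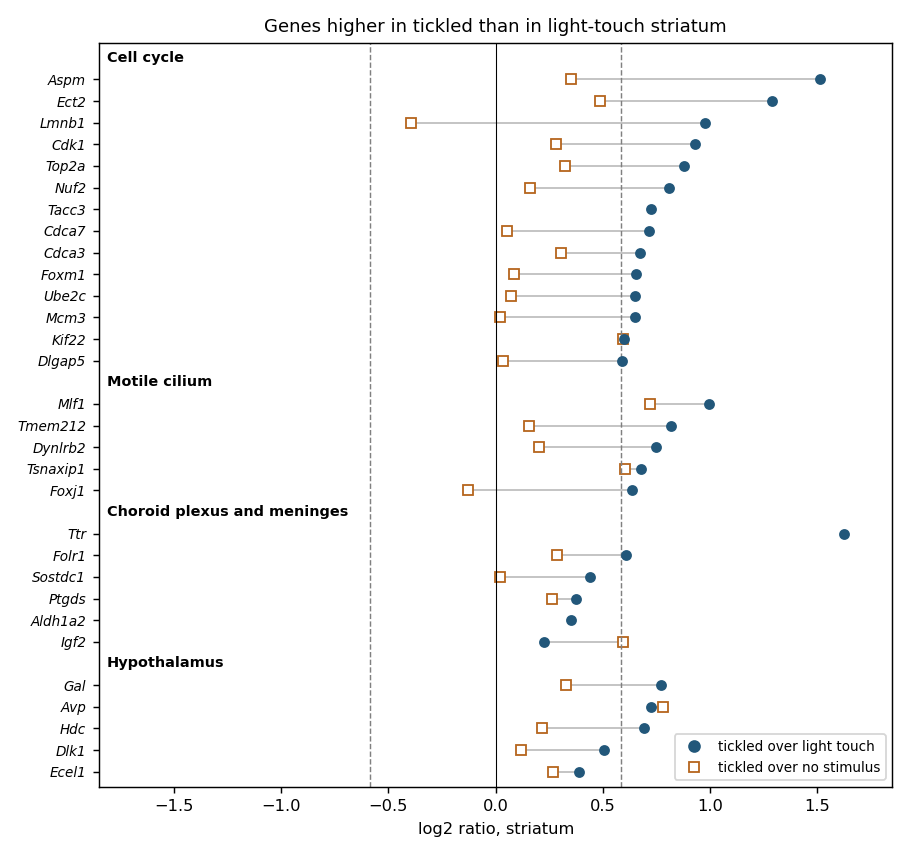
Log2 ratios in striatum of genes with high values, as filled circles for tickled over light touch and open squares for tickled over no stimulus; grey lines join a gene's 2 values and dashed lines mark 1.5-fold. Most cell cycle circles lie right of their squares, Lmnb1 and Foxj1 have squares below 0, and Ttr, Tacc3 and Aldh1a2 have no square.

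Genes of excitatory neurons of the cortex were prominent among the low values. Of 16 valued cortical glutamatergic markers, 6 were 1.5-fold or more lower in tickled than in light-touch striatum and 0 were higher, against 0.545% lower among all genes. Slc17a7, which loads glutamate into vesicles of cortical neurons, was 2.18-fold lower (log2 -1.13). Nrn1, a neuritin that promotes neurite growth, had -0.99, and Tbr1, a transcription factor of deep-layer neurons, had -0.96. The bHLH factors Neurod6 and Neurod2 had -0.82 and -0.71, and the matricellular gene Ccn3 had -0.71.

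The same markers were low over no stimulus, with Tbr1 at -1.26 and Neurod2 at -0.51, on an array that shares the tickled condition. Other markers of these neurons were closer to 0. Camk2a, the kinase of excitatory synapses, had -0.35 and Slc30a3, a zinc transporter of glutamate vesicles, had -0.38. Itpka, a kinase of dendritic spines, had 0.06. The list's median was -0.31, and Neurod1 and Emx1 had no value. Whether the amount of cortex in the dissected blocks has a part in these values was not tested.

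Markers of single layers were less uniform. Of 11 upper-layer genes, 1 was past 1.5-fold lower, Cbln2 (-0.95), a synaptic organiser, and their median was -0.02. Rorb, a factor of upper-layer neurons, had 0.19. Of 15 deep-layer and claustrum genes, 12 lay below 0, against 50.9% of all genes. Nr4a2 (-0.70) alone was past 1.5-fold, with Fezf2, a factor of corticofugal neurons, at -0.40 and Lxn at -0.27. Among 11 markers of hippocampus and amygdala, 3 were past 1.5-fold lower, against 0.545% of all genes. They were Rspo2 (-0.94), an activator of Wnt receptors, C1ql3 (-0.79), a secreted synaptic protein with probes at -0.93 and -0.64, and the peptide gene Grp (-0.62). Fibcd1, which marks a field of the hippocampus, had 0.54.

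The 30 valued markers of medium spiny neurons had a median of 0.00, and all lay between -0.17 and 0.36. None was past 1.5-fold, against 0.812% of all genes higher and 0.545% lower, so this count of 0 is near those shares. The dopamine receptor genes Drd1 (0.04) and Drd2 (0.00) were level, and Penk (-0.15), Tac1 (-0.17) and Pdyn (0.12), the peptides of these neurons, were close to level. Ebf1, a transcription factor of direct-pathway neurons, was highest with 0.36. Of the 31 markers on the array, Oprm1 alone had no value. Astrocyte, oligodendrocyte and vascular lists also had 0 members past 1.5-fold among 22, 25 and 23 valued genes, with medians of 0.04, 0.08 and 0.00. In the same order, 17, 20 and 12 of these genes lay above 0, against 49.1% of all genes.

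Hypothalamic markers were given because the labels name that region too. Of 28 on the array, 18 had a value, and Crh, Agrp, Sim1, Otp and Rax had none. Of the 18 valued, 3 were past 1.5-fold higher, against 0.812% of all genes. They were Gal (galanin, 0.77), Avp (vasopressin, 0.73) and Hdc (the enzyme of histamine synthesis, 0.69). Both Avp probes were high, at 0.67 and 0.79. The list's median was 0.15. Hcrt (0.15), Pomc (0.18) and Oxt (0.15) were near that median, and Pmch, the gene of melanin-concentrating hormone, had -0.21. Over no stimulus, Gal had 0.33, Avp 0.78 and Hdc 0.21.

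**Figure D3:**
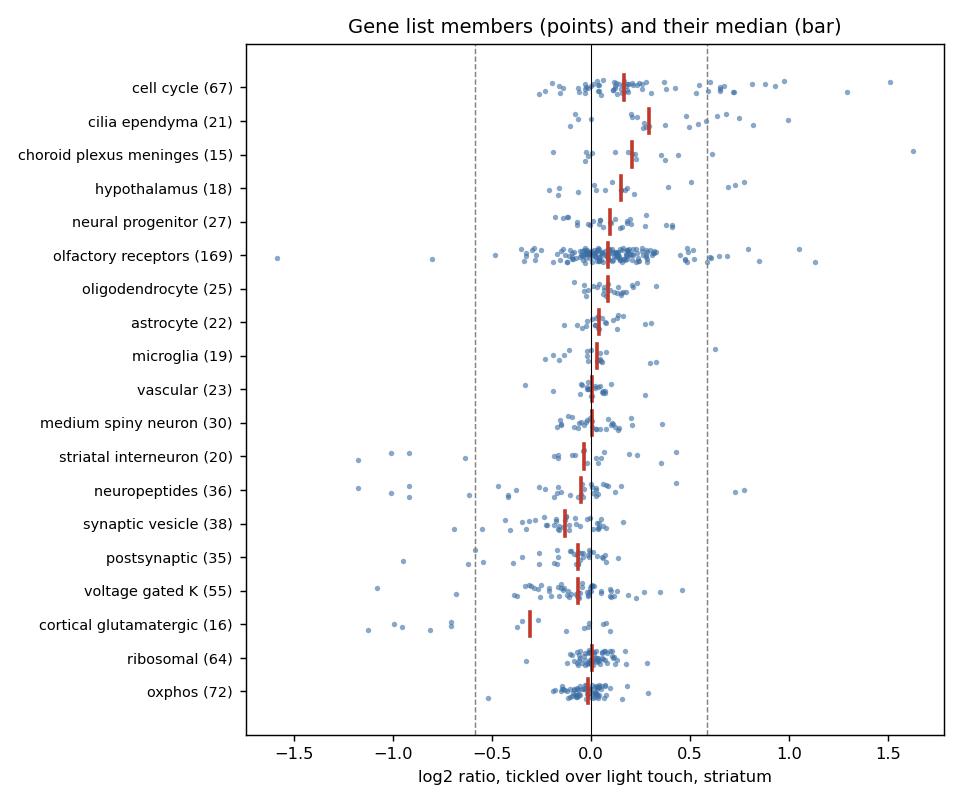
Each point is the log2 ratio of tickled over light-touch striatum of a gene, by gene list, with the number of valued members in brackets; red bars are list medians and dashed lines mark 1.5-fold. Cell cycle and cilium genes have long tails to the right, cortical glutamatergic genes and neuropeptides to the left, and medium spiny neuron genes stay between -0.17 and 0.36.

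Some peptide genes of interneurons were low, and other interneuron markers were not. Interneurons release GABA and a peptide, and each class is known by its peptide. Vip, which marks interneurons of the cortex, was 2.26-fold lower in tickled striatum (log2 -1.18, and -0.76 over no stimulus). Cck, a peptide of cortical interneurons and pyramidal cells, was 2.01-fold lower (-1.01, and -1.06 over no stimulus). Cort, the somatostatin-like cortistatin, had -0.92, and Crhbp, which binds and buffers corticotropin-releasing hormone, had -0.64. Sst (-0.04) and Npy (0.04), which mark interneurons found in striatum as well, were level. So of 20 valued interneuron markers, 4 were past 1.5-fold lower and 0 higher, against 0.545% and 0.812% of all genes. Their median was -0.04. Markers of striatal cholinergic interneurons had values above 0, with Slc5a7, the choline transporter, at 0.43 and Slc18a3, the vesicular acetylcholine transporter, at 0.35.

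The full peptide list of 36 valued genes had 5 members past 1.5-fold lower and 2 higher, against 0.545% and 0.812% of all genes. Its median was -0.05. Sstr3, a receptor of somatostatin and cortistatin, had -0.92. The other somatostatin receptors Sstr1 and Sstr2 had -0.47 and -0.42, while Sstr4 had 0.01. Pnoc, the nociceptin precursor, had -0.42.

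Many peptide genes answer to cyclic AMP through a response element (CRE). The promoters of Vip and Gal are shown, because these genes lay at opposite ends of the peptide list. Capitals mark the CRE core CGTCA on either strand, and the window, build and orientation are as above.
Vip, chr1:44470230-44470529, plus strand: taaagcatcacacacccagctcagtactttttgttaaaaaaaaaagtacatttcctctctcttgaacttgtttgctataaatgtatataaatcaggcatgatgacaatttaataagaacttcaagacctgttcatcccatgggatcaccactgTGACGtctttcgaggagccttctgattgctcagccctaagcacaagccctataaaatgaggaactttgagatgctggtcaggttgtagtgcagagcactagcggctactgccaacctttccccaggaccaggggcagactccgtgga
Gal, chr1:210084523-210084822, minus strand: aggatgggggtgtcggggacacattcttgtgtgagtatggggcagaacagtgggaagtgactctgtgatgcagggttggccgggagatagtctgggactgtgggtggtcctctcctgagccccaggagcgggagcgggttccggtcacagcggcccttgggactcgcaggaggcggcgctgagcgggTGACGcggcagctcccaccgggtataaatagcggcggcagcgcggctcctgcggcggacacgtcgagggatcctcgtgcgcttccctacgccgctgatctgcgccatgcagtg

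Both Vip, at -1.18, and Gal, at 0.77, held the core letters on the opposite strand, 97 and 63 bases before the start site. Of 33 peptide and receptor promoters in the table, 19 held the core, or 57.6%, against 30.6% of promoters of all genes valued on the array and 21.2% of all promoters. Of the genes past 1.5-fold, 3 of 4 lower and 2 of 2 higher ones held it.

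Neurotrophic and activity-induced genes had members at the low end. Bdnf, a neurotrophin that cortical neurons send to the striatum, was 1.98-fold lower over light touch (log2 -0.99, both probes at -0.97 or below) and had -1.31 over no stimulus. Nptxr, a receptor of the pentraxins that gather AMPA receptors, had -0.72, and Nptx2 and Nptx1 had -0.58 and -0.52. Ngfr, the low-affinity neurotrophin receptor, had 0.61. Of 24 valued neurotrophic genes it was the only 1 past 1.5-fold higher, and 3 were lower, against 0.812% and 0.545% of all genes. The list's median was 0.03, with 13 of 24 members above 0, against 49.1% of all genes.

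The median of 30 immediate early and activity-induced genes was -0.04. Of these, 3 were past 1.5-fold lower and 0 higher, against 0.545% and 0.812% of all genes. The 3 lower ones were Bdnf, Nr4a2 and Homer1, a synaptic scaffold gene whose probes differed, at -1.06 and -0.11. Homer1 lay at the 1.5-fold limit with a median of -0.59, and with the array centred or with the smallest probe it was inside, which left 2 lower members. Nr4a3 had -0.48 and Egr3 -0.30. Arc (0.14) and Ier2 (0.31), induced by the same kind of activity, lay above 0.

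Receptors and channels had single low members and list medians near 0. Adra1d, the alpha-1D adrenergic receptor, was 2.90-fold lower (log2 -1.54, and -0.83 over no stimulus), on 1 probe. Among the other 7 valued adrenergic genes, Adra1b had -0.48 and the rest lay between -0.16 and 0.19. Htr1a, the serotonin 1A receptor, had -0.84, while Htr2a had -0.31 and Htr2c 0.07. Chrna4, a nicotinic receptor subunit, had -0.77, beside Chrna5 at -0.47 and Chrna10 at 0.52. Kcnj6, a G protein-gated potassium channel, was 2.12-fold lower (-1.08), and Kcnc2, a channel of fast-spiking neurons, had -0.68. These were the only members past 1.5-fold in the serotonin, adrenergic, acetylcholine and potassium channel lists of 13, 8, 15 and 55 valued genes. Among all genes 0.545% were past 1.5-fold lower. The glutamate receptor, GABA, opioid and cannabinoid, dopamine, and sodium and calcium channel lists had 0 members past 1.5-fold.

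Genes of the synapse lay more often below than above 0. Of 38 synaptic vesicle genes, 28 lay below 0, against 50.9% of all genes, and the median was -0.13. Syt17, a synaptotagmin, had -0.69, Stx1a, a syntaxin of the release machinery, had -0.55, and Syp, the vesicle marker synaptophysin, had -0.35. Of 35 postsynaptic genes, 28 also lay below 0, with a median of -0.07. Cbln2, Cbln1 (-0.62) and Homer1 were past 1.5-fold lower, or 2 of these without Homer1 when the array was centred, and Shank3 (0.07) and Dlg4 (-0.10), the core scaffold genes, were near 0. On the no-stimulus array the 2 lists had medians of -0.19 and -0.09.

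**Figure D4:**
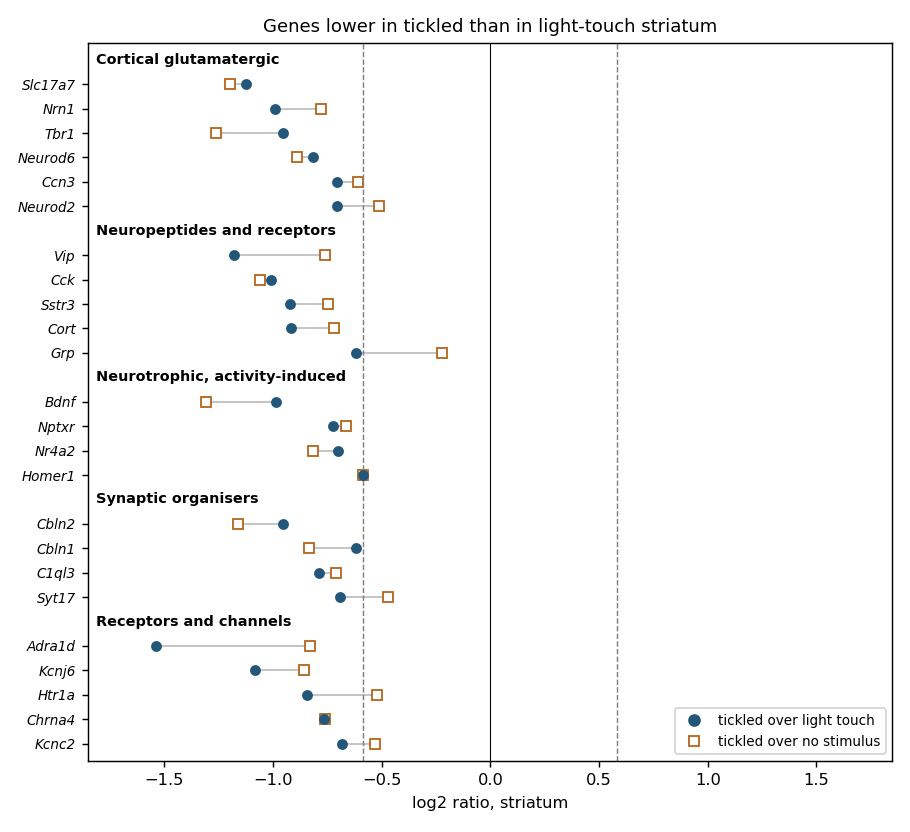
Log2 ratios in striatum of genes with low values, as filled circles for tickled over light touch and open squares for tickled over no stimulus; grey lines join a gene's 2 values and dashed lines mark 1.5-fold. Both symbols lie left of 0 for all genes shown, with Adra1d lowest over light touch (-1.54) and Bdnf lowest over no stimulus (-1.31).

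Several of the remaining genes past 2-fold belong to no group of neurons. Cln6, a membrane protein of the endoplasmic reticulum that is lost in a lysosomal storage disease, was 2.71-fold higher (log2 1.44, and 0.67 over no stimulus). Sf3b6, a subunit of the spliceosome, had 1.05 and no value over no stimulus. C3h20orf96 had 1.07. At the low end, Prpf31, a splicing factor, had -1.35 over light touch and -1.57 over no stimulus, and also -1.23 on both salivary gland arrays. The next lowest of 38 splicing genes was Prpf19 with -0.17. Atoh7, a factor of retinal neurons, had -1.13, and Trim54, a muscle ubiquitin ligase, had -1.09 over light touch but 0.22 over no stimulus.

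Olfactory receptor genes, which detect odours in the nose, took part in both tails. They supplied 11 of the genes past 1.5-fold, 9 higher and 2 lower, among 169 valued genes, or 5.33% and 1.18%. Among all genes these shares were 0.812% and 0.545%. Values were missing for 926 of 1095 such symbols on the array, so 15.4% had a value against 72.9% of all genes. Or6c6i was the lowest gene of the array (log2 -1.58, against 0.24 over no stimulus). Or9g4 had 1.13 and Or52s6 had 1.05, and Or52s6 also had 0.57 over no stimulus and 0.72 and 0.60 on the salivary light-touch and no-stimulus arrays. The list's median was 0.09 here and above 0 on all 6 arrays, up to 0.41 on the leukocyte light-touch array. Each of these genes had 1 probe, and what their signal measures was not tested.

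Of 17 valued aldo-keto reductase and steroid enzyme genes, 2 were past 1.5-fold higher and 0 lower, against 0.812% and 0.545% of all genes. The list's median was -0.004. The 2 were Akr1c13 (0.92) and Akr1c19 (0.76), of the 1C family, which acts on steroids and prostaglandins. Akr1c1, Akr1c2, Akr1c3 and Akr1c12 had no value. Their relative Akr1c14 had 0.13. The family's sequences are much alike, and probes may pick up signal from a relative.

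Immune and stress genes differed little. Of 40 interferon-stimulated genes, 1 was past 1.5-fold higher, against 0.812% of all genes. It was Cxcl10, a chemokine (0.84, with no value over no stimulus), and the list's median was 0.06. Il15, a cytokine, had 0.59, and Lyve1, a marker of macrophages around vessels, had 0.62. Of the clock genes, Nr1d2, a repressor of the loop, had probes at 0.35 and 0.91, its target Bmal1 had -0.35, and Dbp had 0.33. The median of 20 clock genes was 0.05. Of 26 unfolded protein response genes 20 lay below 0, against 50.9% of all genes. Hspa5, the main chaperone of the endoplasmic reticulum, had -0.32. The list's median of -0.11 was 0.028 with the other tissues' median subtracted. Glucocorticoid-responsive genes had a median of 0.05 over 24 members, with Fkbp5, a target often used to read the hormone, at -0.10. Ribosomal protein genes had 0.01 over 64, oxidative phosphorylation genes -0.02 over 72 and proteasome genes -0.04 over 31, and none of these lists had a member past 1.5-fold.

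Some genes had unlike values on the 2 striatal arrays, which share the tickled condition but not the comparator. Tjp1, the gene of a tight junction scaffold, had -0.33 over light touch, with 4 probes between -0.36 and -0.21, and 1.66 over no stimulus. Grifin, a lens protein gene, had -0.87 over light touch and 1.05 over no stimulus. Oxt, the oxytocin gene, had 0.15 and 1.08 in the same order, and Hpgd, which breaks down prostaglandins, had 0.43 and 1.40. In the other direction, Chd5, a neuronal chromatin remodeller, had 0.55 over light touch and -0.41 over no stimulus. Galr2, a galanin receptor, had 0.06 and -0.83, and Cntfr, a receptor of ciliary neurotrophic factor, had -0.43 and -1.42. The difference between the arrays was not tested.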

How the data were processed

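RNA of tickled (Cy5) and comparator (Cy3) rats was hybridised to Agilent 2-colour arrays, 1 per comparison, from 500 ng of RNA per the labels' protocols. The authors deposited log ratios, read here as log2, 1 per feature and array. Agilent Feature Extraction 9.1 is named in the submitters' processing notes. How the ratios were normalized, why some are blank and which base the logs have: not given in the sources used here. If these are natural logs, the log2 values are 1.44 times as large, a reading tried as an alternative. The direction follows the dyes in the labels, with the deposited ratio taken as Cy5 over Cy3. That reading of the ratio was assumed. Intensities were not used here, so signal over background is unknown. Precision is limited by the number of arrays.

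Features (44290) were joined to symbols through the platform annotation, with symbols updated through the RefSeq gene table of GRCr8. Of these, 23535 carried 1 symbol, 48 several and 20707 none, and only the first kind entered gene values (median of probes). A group is 1 array, so genes were called by size with no test. For each of 56 gene lists the counts and the median are given beside all genes, from Python 3.11.15 with pandas 2.3.3. The members and lists were chosen with earlier results of these data known. Named were the 20 highest and lowest genes, genes with 3 or more probes all past 1.5-fold (0 found), list members past 1.5-fold, up to 6 members per list, members near 0 (under 0.1), and the 10 genes each way that differ most between the striatal arrays, provided that all probes shared a sign. Further list members with a known role (such as Aurkb, Drd1, Sst or Sstr1) were named after their values were seen. Alternatives were centring, other probe summaries, agreeing probes, natural logs, shared values and subtraction of the other tissues' median. The gene summary was run on simulated data with planted differences larger than any gene value on this array. That run checks the code and not the calls made here.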

Additional observations from a re-analysis of the deposited data

Results flagged for a closer look

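Of the genes named by the rule that lay past 1.5-fold in striatum, 3 lay 1.5-fold or more the other way on the light-touch array of another tissue. Slc17a7 had a log2 ratio of tickled over light touch of -1.13 in striatum, against 0.79 in salivary glands and 0.94 in leukocytes. Sstr3 had -0.92 in striatum and 0.89 in leukocytes. Cdca3 had 0.67 in striatum and -0.86 in leukocytes. These are single arrays, and the difference between tissues was not tested.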

How the results depend on the processing

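The counts of 9 higher and 9 lower genes past 2-fold were the same with the array centred, with the mean of probes and with the smallest probe, and were 7 and 9 over genes valued on both striatal arrays. Read as natural logs, 42 genes were higher and 40 lower. Over 1880 genes with 2 or more agreeing probes, 0 were higher and 1 lower, and over genes valued on all 6 arrays 0 were higher and 2 lower, both with fewer genes in the count. Subtracting the median of the other tissues' arrays gave 29 higher and 10 lower genes. That subtraction turned the sign of Cbln1 (0.75), Cldn19 (-0.069) and Grifin (0.35), and of 20 of 56 list medians. Most of these were near 0 before the subtraction. For 5 lists the median before it was at or past the median probe SD of 0.085. They were choroid plexus and meningeal (0.21 before, -0.021 after) and globus pallidus and midbrain genes (0.23, -0.084). The others were blood cell (-0.10, 0.029), unfolded protein response (-0.11, 0.028) and olfactory receptor genes (0.087, -0.058). The cause was not tested. The sign also turned for 13 list medians with agreeing probes and for 7 over genes valued on all arrays, from fewer genes. None of these was past that SD as deposited, but some were after the turn. With agreeing probes, neurotrophic genes went from 0.03 to -0.52 over 5 genes, and tight junction genes from 0.06 to -0.17 over 3. Subtraction of the other tissues' median kept 36 of 55 named genes past 1.5-fold. No paired analysis was possible because each comparison has 1 array. With 1 array and mostly 1 probe per gene, animal-to-animal spread is unknown for every value given here.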

Other observations

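Features with several symbols or none were outside the gene values. Of 10765 such features with a value on the striatal light-touch array, 10 were 2-fold or more higher in tickled striatum and 8 lower, with a range from -3.25 to 1.30 on the log2 scale. Among valued genes past 1.5-fold, 44 of 88 higher and 30 of 59 lower genes belonged to no gene list used here.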
